A study of Mus musculus with 52 samples.

Results

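A published list of mouse embryonic stem cell enhancers holds many that lie far from the genes of the gene table used here. Many of these overlap no entry of a second published list, for cells of the next developmental stage. The regions described here were 1235 such enhancers of mouse embryonic stem cells (mESCs), 14% of the 8794 in the deposited mESC table. A region was taken if it stood after the first 231 rows of that table, measured under 5000 bp and overlapped no row of the deposited table of 16576 enhancers of epiblast-like cells (EpiLCs). Its centre had to lie outside every deposited gene interval of at most 3.2 Mb and over 50 kb from the nearest transcription start site (TSS) in the deposited gene table of 24402 intervals. The conditions applied here use positions alone and no measured signal. Both enhancer lists came from earlier publications, and how those called an enhancer was not examined here. The motif contrasts below can reflect how the lists were made, which was not tested. In turn the conditions left 8563, 7879, 4817, 2516 and finally 1235 regions, called the members below. They are set beside 3 like sets: 1281 mESC-only intergenic enhancers within 50 kb of a TSS, 632 far intergenic mESC enhancers that do overlap an EpiLC enhancer, and 2340 EpiLC-only far intergenic enhancers.

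The series mapped chromatin in 52 libraries, 43 of mESCs and 9 of EpiLCs, in 34 groups of 1 or 2 libraries, of which 4 libraries were inputs and the others immunoprecipitations. All cells had a C57BL6/129Sv background. The mESCs were kept naive and feeder-free with LIF and inhibitors of GSK3 and MEK1, and EpiLCs are their derivatives that resemble the epiblast just after implantation. Control cells had the genotype label ABE and the title ABE_7_10. In the clones labelled cK27R, canonical histone H3 carried arginine in place of lysine 27, and in those labelled pK27R every H3 did. SUZ12KO cells lacked a Polycomb subunit. The libraries for histone H3.3 came from ABE_7_10 cells, there labelled wild type, from H3-3KO knockout cells, and from knockout clones with an added-back wild-type (pK27WT) or K27R (pK27R) histone. Replicates in the mutant groups were separate clones, and the genotype of the EpiLC input library was not labelled. The tables analysed here list regions only, with 0 columns of values per library. Depth is therefore unknown, no mutant could be compared with its control, and every value below describes fixed lists of regions that have no replicate error.

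Enhancers are DNA elements that bind sequence-specific transcription factors and raise transcription of genes that can lie far away on the same chromosome. In naive mESCs, OCT4 (Pou5f1) and SOX2 bind side by side at a composite site. NANOG, ESRRB, KLF4 and KLF5, STAT3 and TFCP2L1 occupy many of the same elements. When naive cells become EpiLCs, OCT4 moves to new sites together with OTX2, many naive enhancers lose acetylation of H3 lysine 27, and other enhancers become active.

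The name given to these regions was checked against the deposited and reference annotations. At the distance limit, the closest region inside lay 50141 bp from a TSS (chr19:29185082-29185758) and the closest outside 49890 bp (chr3:117310759-117311213). The longest region inside measured 4701 bp and the shortest outside 5048 bp. The longest gene interval kept was 2567878 bp and the shortest left out 4686084 bp. The 97 intervals left out covered the centres of 402 of the 1235 enhancers, so for these the place outside genes rests on that limit. With all intervals kept, 833 regions remained. "Far from genes" also holds for the deposited gene table and for coding genes more than for a fuller annotation. In GENCODE M21, which lists noncoding genes and pseudogenes too, 1121 regions (90.8%) lay over 50 kb from a protein-coding TSS, but only 480 (38.9%) lay over 50 kb from every annotated TSS. The nearest GENCODE TSS was that of a processed pseudogene for 413 regions, of a lincRNA for 361 and of a protein-coding gene for 159. The centre was intergenic in 1055 regions (85.4%), intronic in 165, of which 96 were in lincRNAs and 50 in protein-coding genes, and exonic in 15. A GENCODE TSS lay within 1 kb of 33 regions, which are thus promoter-proximal in that annotation.

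The composite site is shown first because it is the sequence by which OCT4 and SOX2 bind together. As searched here, on both strands, it reads CATTGT, 1 free base, then ATGCAAA, and the relaxed form CATTNT, 1 free base, then ATGNAAA. Within the central 500 bp the exact form was found in 1 member and the relaxed form in 13, or 1.05%. That fixed window reaches beyond the 323 members (26.2%) shorter than 500 bp, so there a match can lie outside the region. It leaves out the ends of longer regions. The relaxed form was found in 0.91% of all mESC enhancers, in 0.214% of EpiLC-only far enhancers and in 0.12% of 500-bp windows of far territory, meaning intergenic sequence over 50 kb from a TSS, that held no enhancer. The lines below give 60 bases of 8 of the 13 members, the exact one first and then those with the site closest to the centre. Each is named by the gene with the nearest TSS, with mm10 coordinates of the bases shown and the sequence from the RefSeq GRCm38.p6 genome. Capitals mark the match, which is the exact composite in the first line and the relaxed form alone in the others. The relaxed form was chosen after the count of exact sites was known.
Kif20b, chr19:35101419-35101478, plus strand: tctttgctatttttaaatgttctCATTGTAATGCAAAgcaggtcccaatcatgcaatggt
1700034K08Rik, chr9:92930706-92930765, plus strand: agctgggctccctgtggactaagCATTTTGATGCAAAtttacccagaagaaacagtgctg
Ajap1, chr4:153341050-153341109, plus strand: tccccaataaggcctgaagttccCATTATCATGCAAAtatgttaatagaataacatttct
Mir221, chrX:18838899-18838958, plus strand: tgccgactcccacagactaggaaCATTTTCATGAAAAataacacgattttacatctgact
Mctp2, chr7:72615493-72615552, minus strand: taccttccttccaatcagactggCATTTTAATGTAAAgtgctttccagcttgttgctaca
Car12, chr9:66659024-66659083, plus strand: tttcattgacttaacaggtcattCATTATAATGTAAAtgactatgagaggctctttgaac
Pcdh17, chr14:82466838-82466897, plus strand: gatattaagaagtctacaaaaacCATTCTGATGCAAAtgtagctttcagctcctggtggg
Bdh1, chr16:31473390-31473449, minus strand: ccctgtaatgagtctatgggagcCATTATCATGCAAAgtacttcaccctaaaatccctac

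Allowing single-base differences from the exact composite widened the count without removing its contrast with flanking DNA. With up to 1 mismatch it was found in 27 members (2.19%), against 0 and 1 of the 1235 windows placed 5 kb to the left and right. With up to 2 mismatches it was found in 221 members, which is 17.9%, against 2.59% and 1.62% in those flanks. The share with up to 2 mismatches was 17.6% in the mESC-only intergenic enhancers within 50 kb of a TSS, 15.5% in far mESC enhancers that do overlap an EpiLC enhancer, and 14.6% in all mESC enhancers. In EpiLC-only far enhancers it was 3.21%. The site thus marked the members about as often as mESC enhancers in general, and no test of these differences was made.

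The 4 single motifs given next were also more frequent in the members than in the flanks. The POU octamer ATGCAAAT, bound by OCT4, was found in the central 500 bp of 148 members (12%), against 4.29% and 4.21% of the flanking windows and 5.33% of far windows without an enhancer. The SOX motif ACAATGG was found in 206 members (16.7%), against 9.72% and 9.39% of the flanks. The ESRRB motif TCAAGGTCA, the extended monomer site of this orphan nuclear receptor, was found in 51 members (4.13%), against 0.729% and 0.81%. The KLF motif GGGTGTGG was found in 79 members (6.4%), against 3.32% and 2.75%. At least 1 of these 4 motifs was present in 34.8% of the members and in 16.8% and 16% of the flanks. Most members therefore held none of the 4 exact sequences, which says nothing of binding through variant sites.

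Other motifs are given for comparison. The ETS motif CCGGAAGT was found in 0.972% of the members, against 0.324% and 0.243% of the flanks. The OTX motif CTAATCC, bound by OTX2, was found in 5.83% of the members, against 3% and 4.05% of the flanks, and the TCF motif CTTTGATC, bound by the WNT effectors TCF7L1 and LEF1, in 3.08%, against 2.35% and 1.86%. The STAT motif TTCCNGGAA, read by STAT3 downstream of LIF, was found in 1.46% of the members and in 1.46% and 1.54% of the flanks. For CTCF, the factor that anchors chromatin loops, the core CCANNAG, 2 free bases, GGC was found in 1.54% of the members, against 1.94% and 2.35%. The AP-1 motif TGANTCA was frequent everywhere, with 18.2% in members and 14.7% and 14% in flanks.

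**Figure D1:**
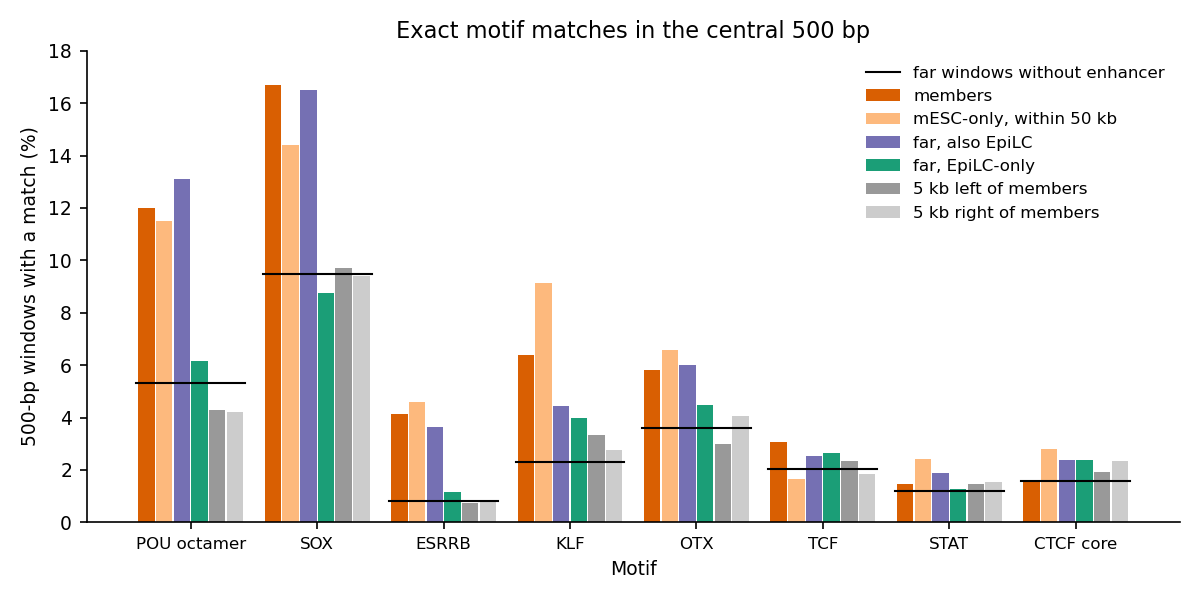
Share of 500-bp windows (vertical axis, percent) that hold an exact match to each of 8 motifs (horizontal axis). Bars stand for the members, 3 like sets of enhancers and the 2 windows 5 kb beside the members, and black lines for far windows without an enhancer. For the POU octamer the members reach 12% and their flanks 4.29% and 4.21%, whereas for STAT members and flanks lie between 1.46% and 1.54%.

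For the octamer, SOX and ESRRB, the members' shares lay nearer to those of the other mESC sets than to those of EpiLC-only far enhancers. The POU octamer was found in 11.5% of the mESC-only enhancers nearer genes, in 13.1% of the far mESC enhancers that overlap an EpiLC enhancer, in 10.5% of all mESC enhancers and in 6.16% of EpiLC-only far enhancers. SOX gave 14.4%, 16.5%, 14.2% and 8.76% in the same 4 sets. ESRRB gave 4.61%, 3.64%, 3.66% and 1.15%. KLF spread most among the mESC sets, with 9.13% nearer genes, 6.4% in the members and 4.43% in the far enhancers that overlap an EpiLC enhancer, against 3.98% in the EpiLC-only far set. Median GC content in these mESC sets was 44.8%, 43.4% and 45.6% in the same order, and its part in the KLF shares was not tested.

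The matches gathered at the region centres. In the 2 bins of 100 bp at the centre, 3.93% of members held an octamer per bin, against 0.935% in the outer bins of the 2-kb reach on each side, a ratio of 4.2. The ratio was 3.06 for SOX, 3.37 for ESRRB and 2.66 for KLF. It was 2.19 for TCF, 1.68 for OTX and 1.16 for STAT. In the mESC-only enhancers nearer genes the ratios were 6.06 for the octamer, 2.54 for SOX, 3.57 for ESRRB and 2.98 for KLF. The central gathering was thus shared by that set. In EpiLC-only far enhancers, which are longer, the ratios were 1.56 for the octamer, 1.19 for SOX, 1.22 for ESRRB and 1.13 for KLF. Of the 148 members with an octamer, 23 (15.5%) also had the SOX motif, which 16.7% of all members held. ESRRB was present in 4 of the 148 (2.7%), against 4.13% of all members. In 15 members the octamer occurred at 2 places.

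**Figure D2:**
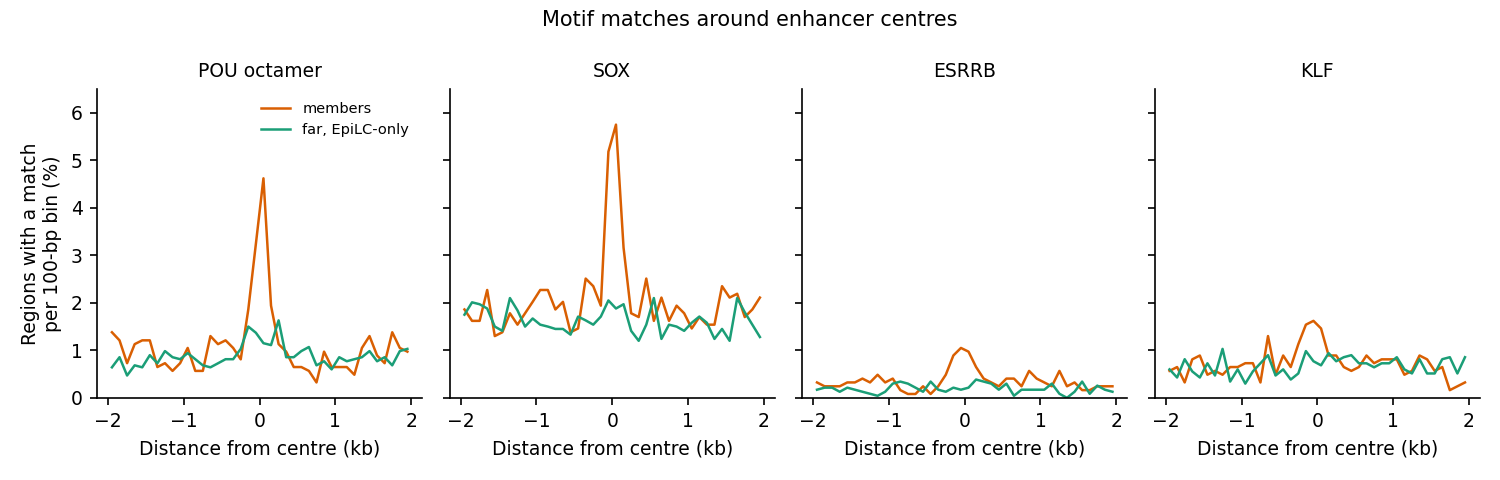
Share of regions with a motif match per 100-bp bin (vertical axis, percent) by distance from the region's centre (horizontal axis, kb), for 4 motifs. Orange lines are the members and green lines the EpiLC-only far enhancers, and the members' octamer reaches 4.62% in its highest bin. The mESC-only enhancers nearer genes are not drawn.

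The members were small regions. Their length had quartiles of 493.5, 600 and 731 bp, within a range of 6 to 4701 bp. The median was 648 bp in mESC-only enhancers nearer genes, 746 bp in far mESC enhancers that overlap an EpiLC enhancer and 711 bp in the whole mESC table. EpiLC-only far enhancers came from another study's peaks and had a median of 1325 bp. A longer region also has more chance to overlap a row of the other table, and the lengths given here bear on every count of overlaps below. The 5 longest members measured 4701, 4120, 3838, 3801 and 3791 bp and lay nearest to Gm2516, Gm20740, Opa1, Gm4894 and Chd1l. The 5 shortest measured 6, 49, 50, 56 and 87 bp and lay nearest to Gm4719, 3830408C21Rik, Gm20362, Snx19 and Cadm1. The shortest is shorter than any motif searched here.

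The distance to the nearest deposited TSS, whose lower end the rule sets, had quartiles of 81.9, 142.9 and 294.8 kb. It was over 100 kb for 823 members (66.6%), over 500 kb for 139 (11.3%) and over 1000 kb for 34. The farthest lay 2140.5 kb from Olfm4, which encodes a secreted glycoprotein, yet only 1.8 kb from the start of the lincRNA Gm49048, in whose intron it sits (chr14:82140523-82141000). The next lay 2066.3 kb from Rag2, which encodes a subunit of the V(D)J recombinase, 1976.7 kb from the protocadherin gene Pcdh17, and 1915.5 and 1686.7 kb from the ephrin genes Efna5 and Efnb2. The member near Pcdh17 is also among those printed above with the relaxed composite.

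Other enhancers were distant as well. The nearest EpiLC enhancer lay at quartiles of 36.8, 97.4 and 214.0 kb, and 602 members (48.7%) had none within 100 kb. For mESC-only enhancers nearer genes the median was 41.9 kb. An EpiLC enhancer stood within 5 kb of 47 members (3.81%) and of 8.43% of the mESC-only enhancers nearer genes, and the closest began 1 bp away. The nearest other mESC enhancer lay at a median of 106.3 kb and never closer than 12535 bp. That median was 70.8 kb for mESC-only enhancers nearer genes and 80.9 kb for far mESC enhancers that overlap an EpiLC enhancer. It was 68.8 kb over the whole mESC table. In the whole mESC table the smallest gap was 12516 bp, so closer pairs do not occur in that table. No other mESC enhancer stood within 50 kb of 897 members (72.6%).

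**Figure D3:**
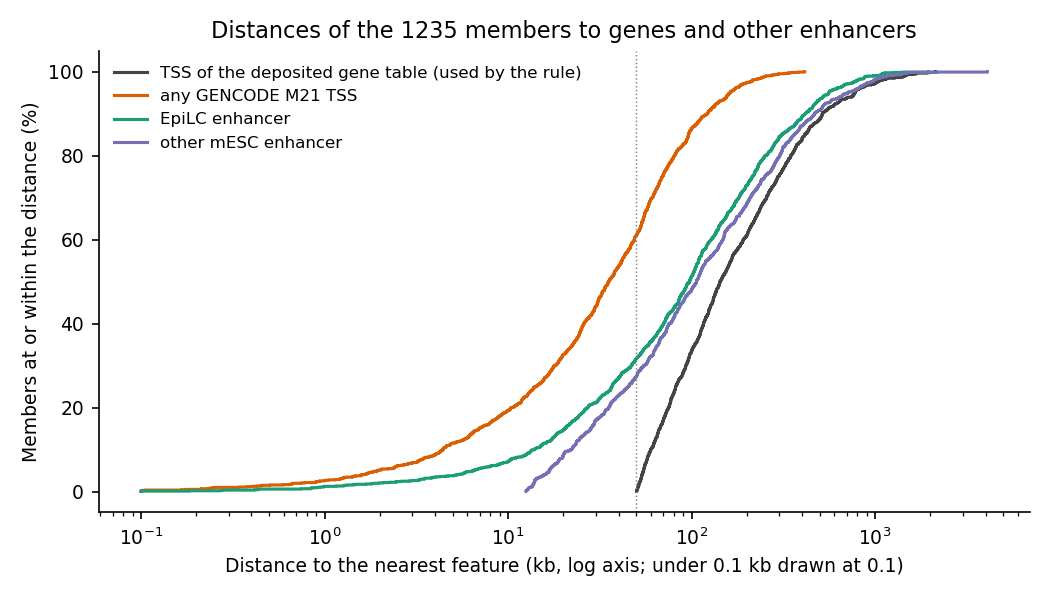
Cumulative share of the 1235 members (vertical axis, percent) by distance to the nearest feature (horizontal axis, kb, log scale). The dotted line marks the 50-kb limit: by GENCODE M21 only 38.9% of members lie beyond it, and the median distance is 35.3 kb to any GENCODE TSS, 97.4 kb to an EpiLC enhancer and 142.9 kb to a TSS of the deposited table.

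Overlap with EpiLC enhancers was most frequent next to genes. Of 2311 intergenic mESC enhancers within 50 kb of a TSS, 44.6% overlapped an EpiLC enhancer, against 33.9% of the 1867 beyond 50 kb. By distance the share was 55.0% within 5 kb, 42.5%, 41.5% and 41.6% in the steps up to 50 kb, 35.8% from 50 to 100 kb, 37.2% from 100 to 200 kb, 28.5% from 200 to 500 kb and 31.2% beyond. Median length fell along the same steps, from 715 to 619 bp. Among regions of 500 to 800 bp alone the shares within and beyond 50 kb were 37.3% and 31.3%. In these regions the share was 50.8% within 5 kb of a TSS. It was 32.5%, 38.9% and 31.0% in the steps from 5 to 50 kb and 32.2%, 35.0%, 25.3% and 33.9% in those beyond, so that past 5 kb the steps overlapped. The gap has no replicate check, and the part of region length in it was not tested beyond this restriction.

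**Figure D4:**
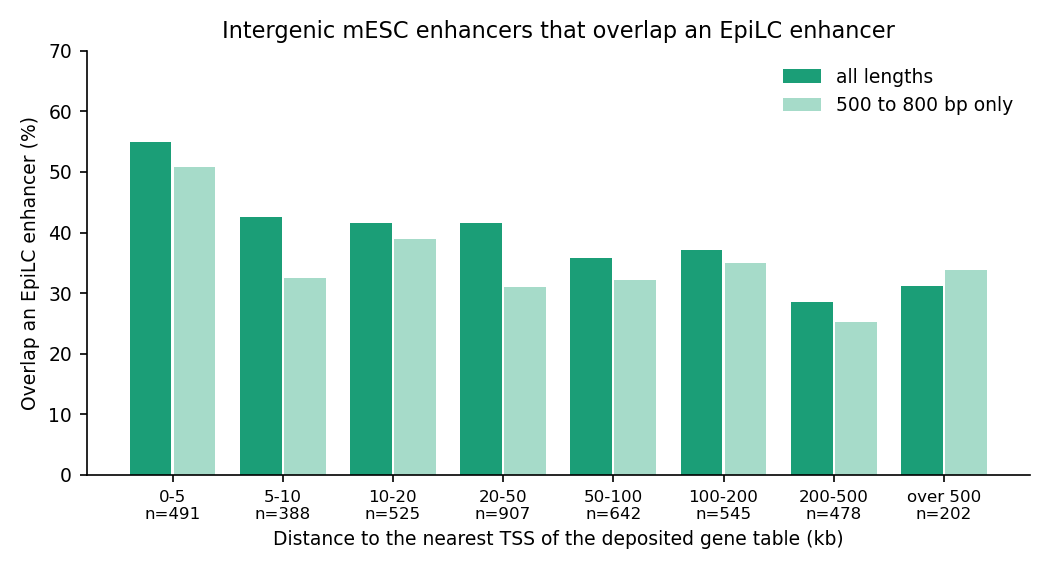
Share of intergenic mESC enhancers that overlap an EpiLC enhancer (vertical axis, percent) by distance to the nearest deposited TSS (horizontal axis, kb), for regions of all lengths (dark bars, n given) and of 500 to 800 bp (light bars). The dark bars fall from 55.0% within 5 kb to 28.5% at 200 to 500 kb.

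Dense groups of members were limited in advance. The mESC table has no gap under 12516 bp, and the rule removes neighbours of other kinds. Another member lay within 50 kb of 176 (14.3%). Joining members across such gaps gave 1059 single regions, 82 pairs and 4 groups of 3, of which the 3 of smallest span are named. The tightest group of 3 spanned 42.6 kb nearest to Tmem178b on chromosome 6. The next spanned 62.4 kb nearest to Cntn5 on chromosome 9 and 63.2 kb nearest to Tars on chromosome 15. The stretch free of gene intervals around a member had a median of 481.7 kb.

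Nearest genes are given by position only, since the files do not tie an enhancer to a target. The members were nearest to 957 named genes, of which 771 had 1 member, 130 had 2 and 40 had 3. Sall3, a zinc-finger factor of the spalt family that acts in neural and limb development, had the most. Its 6 members lay 65.0, 190.3, 210.9, 265.5, 309.4 and 484.0 kb upstream of its TSS, and they made up 6 of the 7 mESC enhancers nearest to that gene, against 2 EpiLC enhancers. Cntn5, which encodes a neural cell-adhesion protein, had 5, from 473.6 to 1077.4 kb upstream. A further 14 genes had 4 each. The first 8 of these by name, 1700015G11Rik, AU023762, Ajap1, Castor2, Dhx35, Gm10745, Hs6st1 and Irx3, complete the 10 genes drawn. The others were Map3k7, Nkx6-1, Olfm4, Pcdh17, Pfkp and Tgfbr2. At Irx3, a homeodomain factor of the Iroquois family, 1 of the 4 lay 92.8 kb downstream and the others 81.7, 195.3 and 227.0 kb upstream. In all, 8 mESC and 8 EpiLC enhancers lay nearest to it. At Dhx35, a helicase gene, 4 of 5 mESC enhancers were members, between 218.1 and 440.3 kb downstream of its start, with 2 EpiLC enhancers. At Hs6st1, a heparan sulfate sulfotransferase gene, the 4 lay between 226.6 and 370.4 kb upstream.

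**Figure D5:**
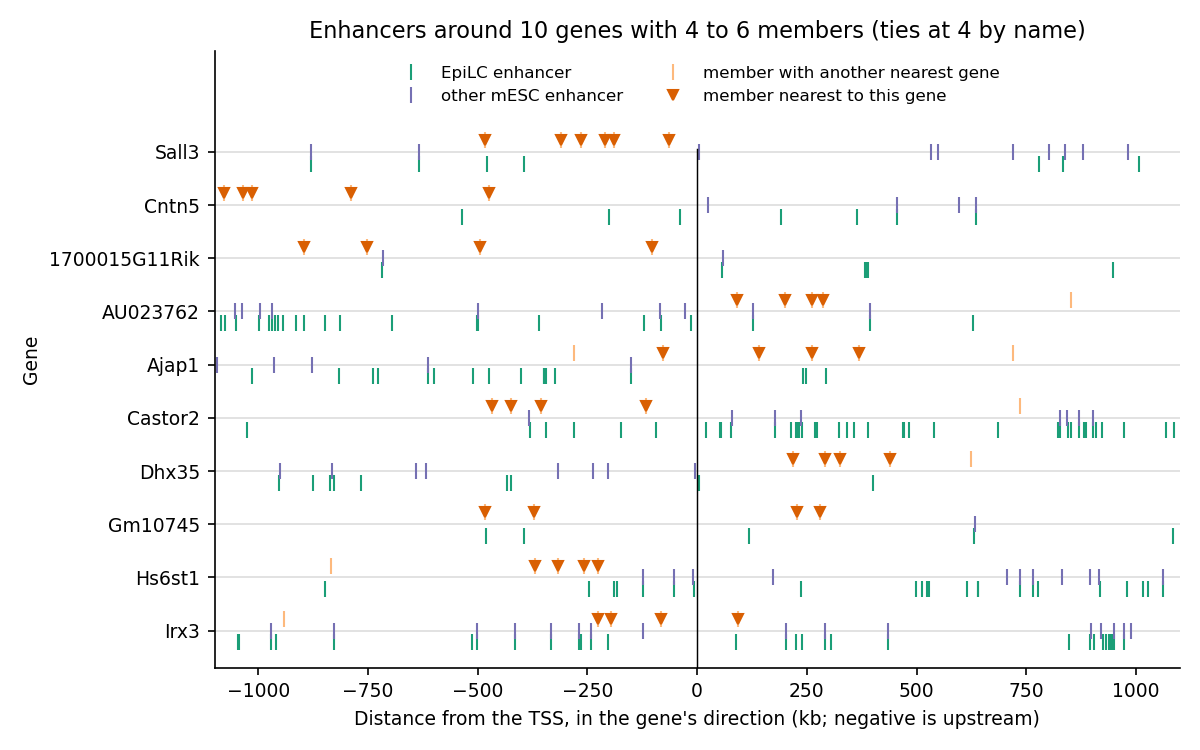
Enhancers around Sall3, Cntn5 and the first 8 by name of the 14 genes with 4 members, by distance from each TSS in the gene's direction (horizontal axis, kb, negative upstream), with a line per gene. Triangles are members nearest to that gene, and ticks are other members, other mESC enhancers and EpiLC enhancers, of which Sall3 has 6 members upstream between 65.0 and 484.0 kb.

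Few members stood nearest to pluripotency genes, and for the naive list their share was close to that of all mESC enhancers. Of 25 naive pluripotency genes 4 had a member, with 5 members in all (0.405% of members, against 0.534% of all mESC enhancers). Tfcp2l1, a naive transcription factor, had 1 member at 62.0 kb. Nr5a2, a nuclear receptor that can activate Pou5f1, had 2, at 91.5 and 427.2 kb upstream. Klf5 had 1 at 114.6 kb downstream, and Dppa4, a chromatin protein of pluripotent cells, 1 at 156.6 kb upstream. Nanog, Klf2, Klf4 and Esrrb had none. Among general pluripotency genes, the zinc-finger gene Sall1 had 1 member at 539.2 kb upstream, whereas Pou5f1 and Sox2 had none. The rule takes no region from the first 231 rows, of 5000 bp or more, or within 50 kb of a TSS. Such enhancers could not count for any gene here.

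Genes listed for the formative and primed epiblast, the state that EpiLCs model, had 4 members (0.324%, against 0.33% of all mESC enhancers). They lay nearest to Otx2 at 73.0 kb, to Myc at 57.4 kb, to the WNT effector Lef1 at 131.6 kb and to Sox3 at 72.4 kb. Each of these 4 is thus an mESC enhancer without EpiLC overlap whose nearest TSS belongs to a gene listed for that state. The nearest EpiLC enhancers stood 40.5, 55.8, 17.6 and 47.1 kb away from them, in the same order.

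Lists of lineage regulators and other genes are given in the same way. Homeodomain regulators had 16 members at 9 of 45 genes (1.3% of members, against 0.557% of all mESC enhancers). Nkx6-1, a factor of ventral neural tube and pancreas, had 4 members from 126.5 to 328.2 kb downstream, Irx3 the 4 given above, and En1, a midbrain and hindbrain factor, 2. Neural regulators had 11 members (0.891%, against 0.455%), of which Sall3 had 6. Pou4f1 had 2 and the nuclear receptor genes Nr2f1 and Nr2f2 had 1 and 2. Mesoderm and endoderm regulators had 8 (0.648%, against 0.205%), with 2 at Foxa2, a forkhead factor of endoderm and floor plate, at 78.1 and 141.2 kb, and 2 at Kdr, the VEGF receptor of endothelial precursors, at 70.4 and 116.3 kb. The member nearest to Isl1 counts both here and in the homeodomain list. Trophoblast genes had 5 (0.405%, against 0.102%). Of these, 3 lay 69.6 to 184.1 kb downstream of Tfap2c, which is also on the germ cell list. The others lay 231.5 kb from Gata3 and 145.8 kb from Esx1. The germ cell list also had 5 (0.405%, against 0.239%), the 3 at Tfap2c and 2 at Prdm1, which encodes BLIMP1, at 225.7 and 240.8 kb upstream. Polycomb genes had 2 (0.162%, against 0.262%), both at Aebp2. The 2-cell stage, ribosomal protein, housekeeping, and muscle and liver lists had 0. Of the 632 far mESC enhancers that overlap an EpiLC enhancer, 4 lay nearest to homeodomain and 6 to neural regulators. In that set, mesoderm and endoderm regulators had 0, trophoblast genes 0 and germ cell genes 1. Of the 1281 mESC-only enhancers nearer genes the counts were 6, 6, 5, 0 and 0 in this order. The neural share was thus not particular to the members. Genes with wide empty surroundings can collect far enhancers by position alone. The part of that in these shares was not tested.

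Sequence shared among members was found in 190 of them (15.4%), which formed 32 families when regions with an alignment of at least 100 bp at 80% identity or more were joined. The count fell to 50 members with a limit of 200 bp and to 21 with a limit of 90% identity. At the main limits families held 71, 17, 14, 12, 6 and at most 5 members. None of the 190 had the relaxed composite, against 13 of the 1045 members in no family. The octamer, sought in whole regions, was found in 17 of the 190 (8.95%) and in 14.6% of the others. The SOX motif was found in 24.7% and 19.1%, and ESRRB in 15 of the 190 (7.89%) and 44 of the others (4.21%).

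The third family, with 14 members on 12 chromosomes, is shown because the ESRRB motif stands at the same place of its shared sequence. In whole regions the motif was found in 8 of the 14, against 4.78% of all members. The 80 bases around it are printed below for all 8, turned so that the motif reads forwards, with the motif in capitals. The families shown from here on were chosen after their motif counts were seen.
Rap2b, chr3:61796094-61796173, plus strand: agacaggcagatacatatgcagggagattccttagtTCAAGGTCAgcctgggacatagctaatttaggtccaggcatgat
Ntrk3, chr7:77739233-77739312, minus strand: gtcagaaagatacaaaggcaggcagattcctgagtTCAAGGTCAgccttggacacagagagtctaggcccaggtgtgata
Hpgd, chr8:56219088-56219167, minus strand: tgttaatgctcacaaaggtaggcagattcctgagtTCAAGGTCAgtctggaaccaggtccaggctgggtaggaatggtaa
Stac, chr9:111879690-111879769, plus strand: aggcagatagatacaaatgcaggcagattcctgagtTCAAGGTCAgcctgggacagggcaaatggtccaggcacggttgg
Spanxn4, chr12:63469114-63469193, minus strand: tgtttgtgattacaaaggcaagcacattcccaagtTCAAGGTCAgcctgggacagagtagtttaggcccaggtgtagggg
Tmem161b, chr13:84366019-84366098, plus strand: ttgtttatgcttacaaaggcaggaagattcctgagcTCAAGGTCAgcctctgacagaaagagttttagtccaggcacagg
4930404A05Rik, chr16:52718402-52718481, minus strand: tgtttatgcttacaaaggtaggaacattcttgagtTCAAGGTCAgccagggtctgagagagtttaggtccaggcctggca
Adcyap1, chr17:93482664-93482743, minus strand: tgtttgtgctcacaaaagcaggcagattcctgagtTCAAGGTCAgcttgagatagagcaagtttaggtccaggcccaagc

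Sequence to either side of the motif can be followed from line to line, with aggcag and gattcctgag before it and gcctggga after it in several. Copies were sought with the member nearest to Rprl2, which tied with the one nearest to Stac for most links in this family. The Rprl2 member does not itself hold the exact ESRRB motif. It aligned to 44 places in the genome at the same limits. It also aligned to 13 mESC enhancers, itself included, of which 5 were members and 2 overlapped an EpiLC enhancer, and to 0 enhancers of the EpiLC table. Whether these places carry the motif was not counted, and whether they hold ESRRB in the cells is not in the tables.

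Other families carried other motifs, which in the copies printed here stand in like sequence. In the second family, 17 members on 12 chromosomes with a median 69.3% of bases marked as repeats, the SOX motif was found in 11. Of all members, 20% held it in whole regions. In the fourth family, 12 members on 10 chromosomes, the TCF motif was found in 4, against 4.05% of all members. For each, 3 members are printed with the motif in capitals, the second family first.
Cst10, chr2:149204047-149204126, minus strand: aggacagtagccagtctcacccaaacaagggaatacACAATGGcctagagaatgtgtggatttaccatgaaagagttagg
A530072M11Rik, chr4:16954748-16954827, minus strand: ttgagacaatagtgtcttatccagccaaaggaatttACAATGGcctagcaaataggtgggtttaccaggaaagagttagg
Rprl1, chr6:68813559-68813638, plus strand: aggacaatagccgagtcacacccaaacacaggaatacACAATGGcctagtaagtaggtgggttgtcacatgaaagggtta
Cdh19, chr1:110775215-110775294, plus strand: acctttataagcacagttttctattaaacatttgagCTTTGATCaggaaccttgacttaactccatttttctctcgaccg
Gm10440, chr5:55791736-55791815, minus strand: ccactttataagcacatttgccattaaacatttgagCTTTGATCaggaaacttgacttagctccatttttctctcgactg
1700101O22Rik, chr12:6595756-6595835, plus strand: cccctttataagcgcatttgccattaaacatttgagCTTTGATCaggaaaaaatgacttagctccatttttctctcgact

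Sequence of these 2 families occurred in EpiLC enhancers too. The most linked member of the second family aligned to 1101 places in the genome, to 88 mESC enhancers, of which 58 overlapped an EpiLC enhancer and 15 were members, and to 284 EpiLC enhancers. For the fourth, the member nearest to 4930548K13Rik was used, which tied for most links and lacks the exact TCF motif. It aligned to 1024 places, to 45 mESC enhancers (30 overlapping an EpiLC enhancer, 9 members) and to 203 EpiLC enhancers.

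The first family joined 71 members through chains of pairwise matches, and its ends need not resemble each other. Its most linked member, 3657 bp long, aligned to 244774 places. It is shown by 2 of its pairs, which differ from each other: the first pair aligned over 269 bp at 81.8% identity and the second over 260 bp at 83.1%. Capitals in the second pair mark the AP-1 motif. In whole regions it was found in 28 of the 71 (39.4%), against 23.1% of all members.
Gm2516, chr8:51181591-51181690, plus strand: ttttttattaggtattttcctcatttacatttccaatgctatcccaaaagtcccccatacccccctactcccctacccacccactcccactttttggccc
Gm7008, chr12:40280213-40280312, minus strand: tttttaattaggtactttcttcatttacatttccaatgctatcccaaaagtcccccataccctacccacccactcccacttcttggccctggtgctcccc
Eya1, chr1:14421239-14421338, plus strand: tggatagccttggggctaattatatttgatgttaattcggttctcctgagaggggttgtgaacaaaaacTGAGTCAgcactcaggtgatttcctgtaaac
Itga8, chr2:12557910-12558009, plus strand: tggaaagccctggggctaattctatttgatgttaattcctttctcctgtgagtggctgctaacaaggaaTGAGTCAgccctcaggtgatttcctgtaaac

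Repeat content of the members was low. A median of 14.8% and a mean of 20.1% of the central 500 bp was soft-masked as repeats in the RefSeq genome. The mean was 31.1% and 32.5% in the flanks, 20.6% in all mESC enhancers and 42.1% in EpiLC-only far enhancers. Over 80% of the window was masked in 11 members (0.891%) and in 24% of EpiLC-only far windows. Median GC content was 43.4%, against 41.4% and 41.6% in the flanks, and the mean number of CpG dinucleotides was 4.10, against 9.55 in EpiLC-only far enhancers. Counted in unmasked bases alone, the octamer occurred 265.5 times per Mb in the members and 63.5 and 67.2 times in the flanks. ESRRB occurred 58.8 times per Mb, against 11.8 and 9.6, from 29 matches in the members and 5 and 4 in the flanks. KLF occurred 119.6 times per Mb, against 58.8 and 52.8, and SOX 389.2 times, against 185.8 and 180.0. The contrast with the flanks was thus present outside repeats for all 4 motifs. Over all mESC enhancers the same densities were 240.5 for the octamer, 48.4 for ESRRB, 131.7 for KLF and 324.2 for SOX. EpiLC-only far enhancers gave 174.3, 31.0, 97.5 and 199.5 in this order. Far mESC enhancers that overlap an EpiLC enhancer gave 355.2, 76.7, 76.7 and 351.2. Their KLF density, from 19 matches, was below that of the EpiLC-only far set, from 66, and this difference was not tested. The mESC-only enhancers nearer genes gave 258.6, 48.1, 156.4 and 342.8.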

How the data were processed

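The 3 region tables hold mESC enhancers, EpiLC enhancers and genes, with chromosome, start, end and strand in mm10. Per the series' design text, the authors took the enhancers from earlier publications and lifted them over to mm10. The liftover tool is not named in the labels or headers. Trimmomatic 0.38, bedtools 2.29.2 and Bowtie2 2.3.4.1, with builds mm10 and dm6, appear in the submitters' processing notes, without their settings. Starts were read as counting from 0, which is unsettled by 1 bp for the enhancer tables. The members and the gene lists were chosen with earlier results of these data known.

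A gene interval took the symbol of the RefSeq or GENCODE M21 entry with identical ends, or else of the GENCODE entry sharing 0.8 or more of their joint span. Of 972 nearest intervals 15 received no name. Motifs were sought as exact letters on both strands of the RefSeq GRCm38.p6 sequence, in 500 bp around each centre. Families were built with BLAST+ 2.17.0 (E-value 1e-10) and single linkage in Python 3.11.15. The overlap, distance, motif and family steps were tested on simulated regions and sequences. Named members are the 5 farthest, longest and shortest, the 3 largest groups (ties by smaller span), those beside the limits, those nearest to list genes (up to 4 per list beyond pluripotency and epiblast) and the 10 genes with most members (ties by name). Further list genes and the sequences of families 2 to 4 were picked after their values were seen. Alternatives changed 1 condition of the rule, the motif window, the family limits or the gene link at a time, except that the GENCODE alternative adds both a gene and a TSS condition. The member at another gene of the general pluripotency list is not reported here.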

Additional observations from a re-analysis of the deposited data

How the results depend on the processing

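The size of the set depended most on the gene annotation and the distance: 455 regions remained when GENCODE genes and GENCODE TSS distance counted too, and 823 beyond 100 kb. Leaving out gene rows that end beyond their chromosome, an alternative added after seeing the data, left the count at 1235. With the GENCODE condition the median length was 615 bp, the median TSS distance 205.1 kb and the median EpiLC distance 119.4 kb. Measured to GENCODE TSSs, the TSS distance of the same members was 35.3 kb. The EpiLC distance was 80.8 kb for members beyond 20 kb and 111.2 kb beyond 100 kb. Another member lay within 20 kb of 54 and within 100 kb of 304. The exact composite, found in 1 member, was at 0% without masked bases, with all gene intervals kept and with the GENCODE condition. It rose to 2.19% and 17.9% with up to 1 and 2 mismatches, added after seeing the data. In the central 200 bp the shares were 7.45% (octamer), 10.4% (SOX), 2.02% (ESRRB) and 3.08% (KLF). Without matches on masked bases they were 9.88%, 14.0%, 2.35% and 4.53%. SOX reached 20% in whole regions and ESRRB 5.71% with the GENCODE condition. The masked share was 16.3% over whole regions. Families held 50 members at 200 bp and 21 at 90% identity. Either flanking gene in place of the nearest TSS raised the pluripotency and epiblast lists together from 11 to 17. Of the alternative values for these results, 53 stayed and 29 did not stay within the main value's 95% binomial interval or 1.5 times its count. No paired analysis was possible because the tables hold no value per library. Depth is unknown, so nothing can be said of signal at these regions.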

Other observations

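Territory outside gene intervals and over 50 kb from a TSS made up 976.1 Mb, or 38.1% of the sequenced genome, and held 1.265 members per Mb. Chromosomes 9 and 11 held most for their far territory, with 1.86 and 1.852 per Mb. Chromosome X held fewest, with 50 members or 0.613 per Mb, and chromosome 16 followed with 0.791. EpiLC-only far enhancers were also sparse on chromosome X, at 1.079 per Mb against 2.393 on all chromosomes, and so were far mESC enhancers that overlap an EpiLC enhancer, at 0.196 against 0.647. The low density of chromosome X was thus shared by all 3 far sets.

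The stretch between Olfm4 and Pcdh17 on chromosome 14 was the widest gap between gene intervals to hold members. It measured 4421.6 kb and held 8 members, which were all of its mESC enhancers, beside 7 EpiLC enhancers. The stretch of 1089.1 kb between Dhx35 and 4933416E03Rik held 5 mESC enhancers, all of them members, and 1 EpiLC enhancer. Both were named after their values were seen. In the sixth family of shared sequence, 4 of 5 members held the AP-1 motif, and no KLF, SOX, ESRRB or octamer match was found in any of the 5. Over whole regions, 23.1% of all members held AP-1. The shares of all members with KLF, SOX, ESRRB and the octamer were 7.69%, 20%, 4.78% and 13.8%.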
